A study of Mus musculus with 2 samples.

Results

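The genes described here are 10 genes of cartilage, namely the transcription factors Sox5, Sox6 and Sox9 and the non-collagen matrix genes Acan, Hapln1, Matn1, Matn4, Comp, Chad and Mia. They were taken by name, and every probe set that the platform annotation gives to exactly 1 of them was used, which came to 24 of 34945 probe sets and 10 of 18193 genes. Signals came from fetal palate of BALB/c mice at E18.5 (embryonic day), with 1 Affymetrix array for palate labelled Myf5-/-:MyoD-/- (called here the null-labelled array) and 1 array for wild-type palate of the same background. Myf5 and MyoD (Myod1) are the transcription factors that commit cells to skeletal muscle, and the series asks what skeletal muscle contributes to palate development. How many fetuses went into a sample, their sex, and the kind of null allele are not in the labels. There were no replicates, so every difference compares 2 arrays and no p-value is given.

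Cartilage is built by chondrocytes, whose identity depends on Sox9. Sox5 and Sox6 are relatives without an activation domain of their own that work with Sox9 at the enhancers of cartilage genes such as Col2a1 and Acan. The matrix that chondrocytes secrete holds water through aggrecan (Acan), which is fixed to hyaluronan by link protein (Hapln1), while matrilins, Comp and Chad tie collagen fibrils to other matrix molecules and to cells. Near the palate, cartilage forms the nasal septum and the cranial base, whereas the palatal bones form directly from mesenchyme.

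Neither targeted gene differed clearly. Myod1 gave 1663 on the null-labelled array, against 1938 in wild type, by its brighter probe set. The Myf5 probe set gave 531 on that array and 517 in wild type. Whether these probe sets lie in removed sequence is not known, so the array is named by its label throughout. Eif2s3y, a Y-linked gene, had a signal of 2794 on the null-labelled array and 10.8 in wild type, while Xist, which is transcribed from the inactive X chromosome, was bright on both arrays (16947 on the null-labelled array and 33812 in wild type by its brightest probe set). The arrays thus differed in Y-linked signal as well as in label, and the part of sex in the ratios was not tested. Signals are the authors' MAS5 values (Affymetrix's summary of the probes of a probe set) scaled between the arrays, and ratios are log2 of the null-labelled over the wild-type signal. Values under a floor of 287 were set to it, and a gene counted as measured where its brightest probe set reached 658 on either array.

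None of the 10 genes differed by 2-fold between the arrays. Chad, Mia, Matn4 and Acan, which encode secreted matrix proteins, were 1.48-fold to 1.80-fold lower on the null-labelled array. Every Sox9 and Hapln1 probe set with a ratio was above 0, by 0.12 to 0.58 on the log2 scale, whereas Sox6 and Sox5 each gave opposite signs in different probe sets. Of the 10 genes 8 were measured and 2 (Matn1 and Comp) were not, with both arrays above the floor. Among the measured ones, 0 of 8 were lower by 2-fold or more, against 4.22% of 11238 measured genes, and 0 of 8 higher by as much, against 3.51%. Without the filter, 7 of 10 genes were below 0, where 44.5% of 14389 genes with an array above the floor were below 0. All 10 were above the floor on both arrays, whereas Sox5 and Mia reached the measured level through the wild-type array alone, where they were brighter. Counts below are therefore over all 10 unless measured genes are named. Counted by probe set, 10 of the 21 with a ratio were below 0 and 11 above, against 44.9% below 0 among all such probe sets. In a bulk sample, fewer cells of a type and less RNA per cell cannot be told apart.

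**Figure D1:**
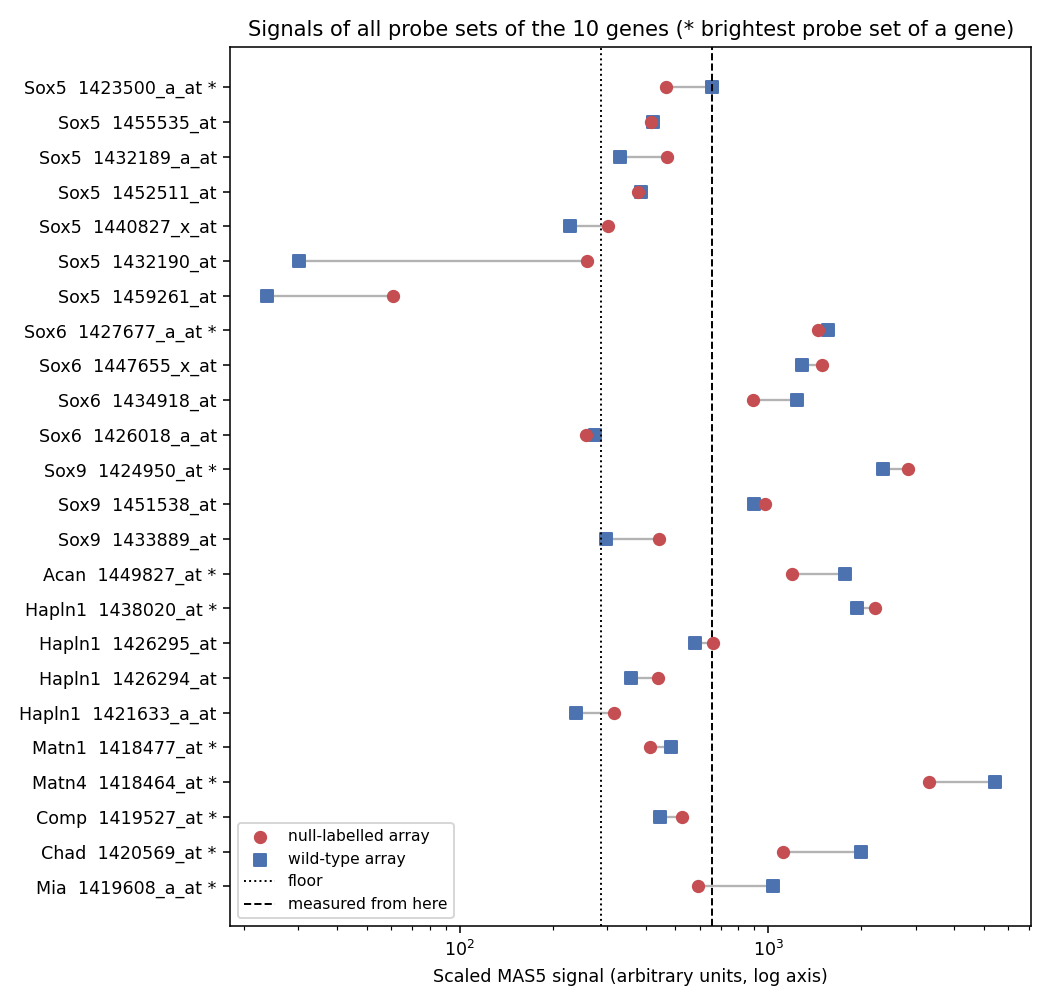
Scaled MAS5 signal (arbitrary units, log axis) of all 24 probe sets on the null-labelled array (circles) and the wild-type array (squares), 1 value each with no error bar, with the floor (dotted) and the level from which a gene counted as measured (dashed). Matn4, Chad, Mia and Acan lie to the left on the null-labelled array, all Sox9 and Hapln1 probe sets lie to the right, and 2 Sox5 probe sets and 1 Sox6 probe set stay under the floor on both arrays.

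Sox9, the factor without which chondrocytes do not form, had a signal of 2828 on the null-labelled array and 2353 in wild type, a log2 ratio of 0.27. Its second probe set gave 976 on the null-labelled array and 897 in wild type (0.12). The dimmest gave 444 on the null-labelled array and 297 in wild type (0.58). All 3 were above 0.

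Sox6 was measured by 3 probe sets that did not share a sign. The brightest gave 1446 on the null-labelled array and 1565 in wild type (-0.11). Another gave 1494 on the null-labelled array and 1283 in wild type (0.22), and the last 892 on the null-labelled array and 1234 in wild type (-0.47). Their range of 0.69 on the log2 scale is wider than any of the 3 ratios, so no direction for Sox6 can be read from these arrays. With scaling on the median signal of reference genes the brightest probe set was at 0.20. The one measured Sox6 probe set without a suffix for several transcripts or shared probes was that at -0.47. A further Sox6 probe set was under the floor on both arrays.

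Sox5 had 7 probe sets, 5 of them with a ratio. The brightest had a signal of 466 on the null-labelled array and 659 in wild type, a log2 ratio of -0.50. It counted as measured only through the wild-type array and passed the threshold of 658 by less than 1 signal unit, so the ratio is given as a value and nothing is read from it. A different Sox5 probe set had the opposite order, 468 on the null-labelled array and 330 in wild type (0.50). The remaining ones with a ratio lay between -0.04 and 0.07, the last a lower bound. Probe sets of Sox5 carried suffixes that mark several transcripts of a gene (_a_at) or probes shared with other sequences (_x_at) in 3 of 7 cases, and with such probe sets left out the gene's ratio was -0.02.

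Other members of the same Sox subgroups gave opposite signs as well. Sox13, which belongs with Sox5 and Sox6, had a signal of 1067 on the null-labelled array and 498 in wild type, 2.14-fold higher by a single probe set (log2 ratio 1.10), and reached the measured level through the null-labelled array alone. It was past 2-fold under 9 of 11 alternatives, and at 0.70 with the floor at the 60th percentile and 0.95 with arrays scaled on the median ratio of reference genes. Sox10, which belongs with Sox9 and marks neural crest and glia, gave 1562 on the null-labelled array and 2158 in wild type (-0.47), and its other probe set gave -0.50. Sox8 was under the floor on both arrays.

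Among the partners of the aggrecan aggregate, the core protein and its link protein went in opposite directions. Acan, whose chondroitin sulfate chains give cartilage its swelling pressure, had a signal of 1194 on the null-labelled array and 1765 in wild type, 1.48-fold lower by its only probe set. Hapln1, which locks aggrecan onto hyaluronan, gave 2220 on the null-labelled array and 1937 in wild type (0.20). A second Hapln1 probe set gave 661 on the null-labelled array and 577 in wild type (0.20), and a dimmer one 438 on the null-labelled array and 360 in wild type (0.28). The dimmest gave 317 on the null-labelled array, with wild type under the floor at 238. All 4 lay above 0, between 0.14, a lower bound, and 0.28. The difference between the log2 ratios of Acan and Hapln1 was -0.76, and no error can be put on it. The pooled standard deviation of log2 ratios between measured probe sets of the same gene was 0.51 over 4030 genes, which covers probe effects but not differences between animals.

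The matrilins are filament-forming adaptor proteins of the matrix. Matn4, which is found in connective tissues beyond cartilage, had a signal of 3305 on the null-labelled array and 5413 in wild type, 1.64-fold lower. Matn1, whose expression is largely limited to cartilage, was dim, with 415 on the null-labelled array and 485 in wild type, a log2 ratio of -0.23, or 0.09 with arrays scaled on the median signal of reference genes. Of the related genes, Matn2 had a log2 ratio of 0.30 with -0.21 in its other probe set. Matn3, Hapln2 and Hapln3 were not measured, and Hapln4 was under the floor on both arrays. The other large hyaluronan-binding proteoglycans had ratios of -0.20 for Vcan (other probe sets -0.65), -0.40 for Bcan and 0.11 for Ncan (other probe set 1.93).

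The lowest ratios of the 10 genes belonged to Chad and Mia. Chad, a leucine-rich repeat protein that binds collagen and cell-surface integrins, had a signal of 1112 on the null-labelled array and 2001 in wild type, 1.80-fold lower. Mia, a small secreted protein also known as cartilage-derived retinoic acid-sensitive protein, gave 591 on the null-labelled array and 1034 in wild type, 1.75-fold lower. Like Sox5, it was measured through the wild-type array alone, and its only probe set carries the _a_at suffix. Comp, a thrombospondin of cartilage and tendon, was not measured and was slightly higher, with 527 on the null-labelled array and 444 in wild type (0.25). Of the measured relatives of Comp, Thbs3 was 3.10-fold lower (659 on the null-labelled array, 2045 in wild type), and Thbs4 and Thbs2 had log2 ratios of 0.17 and 0.07, the other Thbs2 probe sets having a median of -0.17. Relatives of Mia had ratios of -0.22 (Otor) and -0.07 (Mia3, other probe sets -0.65).

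Chad, Mia, Matn4 and Acan were the 4 of 10 genes lower by more than the standard deviation of 0.51 between probe sets, and none was higher by more than that. Among all genes with an array above the floor 13.4% were lower by more than this amount and 15.6% higher. At 1.5-fold, 3 of 10 genes (Chad, Mia and Matn4) were lower, against 11.4% of those genes, and 0 were higher, against 12.7%. Of all measured genes 6.10% had a ratio at or below that of Chad, 6.85% at or below Mia, 8.62% at or below Matn4 and 12.2% at or below Acan, whereas 61.4% and 67.1% lay at or below Hapln1 and Sox9. Each of these 4 genes had only 1 probe set, so none of the lower values was seen by a second probe set. Taking all 6 genes with 1 probe set, 5 were below 0 and 1 (Comp) above, where 44.5% of 14389 genes with an array above the floor were below 0. The 5 are these 4 genes and Matn1, which like Comp was not measured.

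**Figure D2:**
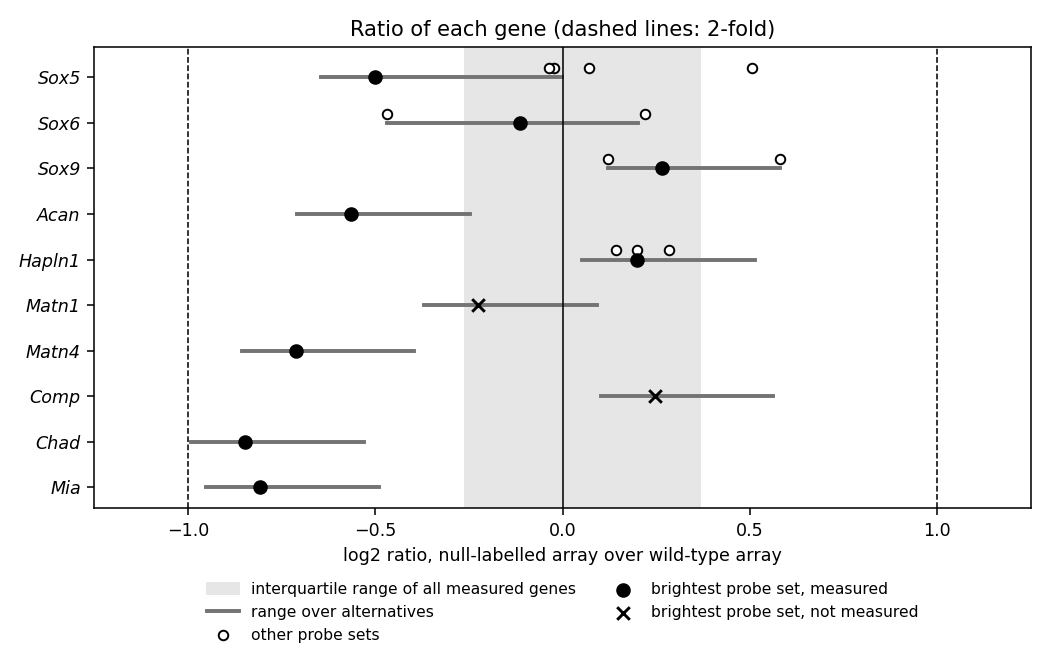
The log2 ratio (null-labelled over wild-type array) of each gene's brightest probe set (filled circle, or a cross where not measured), of its other probe sets with a ratio (open circles), and the range over the processing alternatives (bar), against the interquartile range of all measured genes (shading, -0.26 to 0.37). The bars of Chad, Mia and Matn4 lie wholly left of the shading, and no bar reaches 2-fold.

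The promoters of the lower genes and of Hapln1 are shown because the lower genes had ratios below 0 and Hapln1 above. Each is the 250 bases ahead of the annotated start, from RefSeq (GRCm38.p6), with entries at hand for 8 of the 10 genes. Sox9 and Comp had none, so Hapln1 is the only gene above 0 with a window. The windows were searched on both strands for ACAAT, the core that Sox proteins recognise, and for TATAAA, the TATA box word. Matches are in capitals. Matn4 has another annotated start, whose window had neither match.
Chad (GRCm38.p6, chr11:94564797-94565046, plus strand): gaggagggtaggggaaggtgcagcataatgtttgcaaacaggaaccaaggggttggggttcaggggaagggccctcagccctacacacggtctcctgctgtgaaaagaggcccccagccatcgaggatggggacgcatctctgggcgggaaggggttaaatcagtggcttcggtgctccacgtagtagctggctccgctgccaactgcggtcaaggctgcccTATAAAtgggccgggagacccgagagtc
Mia (GRCm38.p6, chr7:27181150-27181399, minus strand): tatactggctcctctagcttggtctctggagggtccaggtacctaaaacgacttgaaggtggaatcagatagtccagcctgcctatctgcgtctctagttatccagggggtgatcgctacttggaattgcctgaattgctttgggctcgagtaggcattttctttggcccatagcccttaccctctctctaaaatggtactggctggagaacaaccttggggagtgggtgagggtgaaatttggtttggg
Matn4 (GRCm38.p6, chr2:164405161-164405410, minus strand): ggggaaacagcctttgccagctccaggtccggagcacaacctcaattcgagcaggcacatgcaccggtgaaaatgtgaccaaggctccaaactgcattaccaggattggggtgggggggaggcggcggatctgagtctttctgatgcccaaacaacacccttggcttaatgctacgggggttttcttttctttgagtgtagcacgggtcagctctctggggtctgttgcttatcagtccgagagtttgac
Acan (GRCm38.p6, chr7:79052976-79053225, plus strand): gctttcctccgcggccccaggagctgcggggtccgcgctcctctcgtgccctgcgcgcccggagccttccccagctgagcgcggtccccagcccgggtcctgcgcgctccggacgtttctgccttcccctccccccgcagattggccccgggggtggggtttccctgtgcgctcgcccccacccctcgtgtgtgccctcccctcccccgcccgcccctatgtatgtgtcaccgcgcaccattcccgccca
Hapln1 (GRCm38.p6, chr13:89540386-89540635, plus strand): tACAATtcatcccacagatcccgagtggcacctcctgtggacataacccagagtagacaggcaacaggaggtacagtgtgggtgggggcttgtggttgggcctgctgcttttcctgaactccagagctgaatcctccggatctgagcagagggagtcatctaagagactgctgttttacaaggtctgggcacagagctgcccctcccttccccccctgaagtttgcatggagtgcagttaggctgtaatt

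None of the lower genes' windows held ACAAT, and that of Hapln1 held it 249 bases before the start. Among all 32851 promoter windows of this length 27.7% held it. For the whole set, 5 of 14 windows had a match, from 3 genes (Hapln1, Sox5 and Sox6). TATAAA stood 28 bases before the start in Chad, where 12.4% of all windows hold that word on either strand. The Acan window was 74.4% G and C, at or above 95.8% of all windows, and the Mia window 50.4%, near the median of 52.4%. Neither word was common to the windows of the lower genes. A match is a string of letters and not a site of binding.

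**Figure D3:**
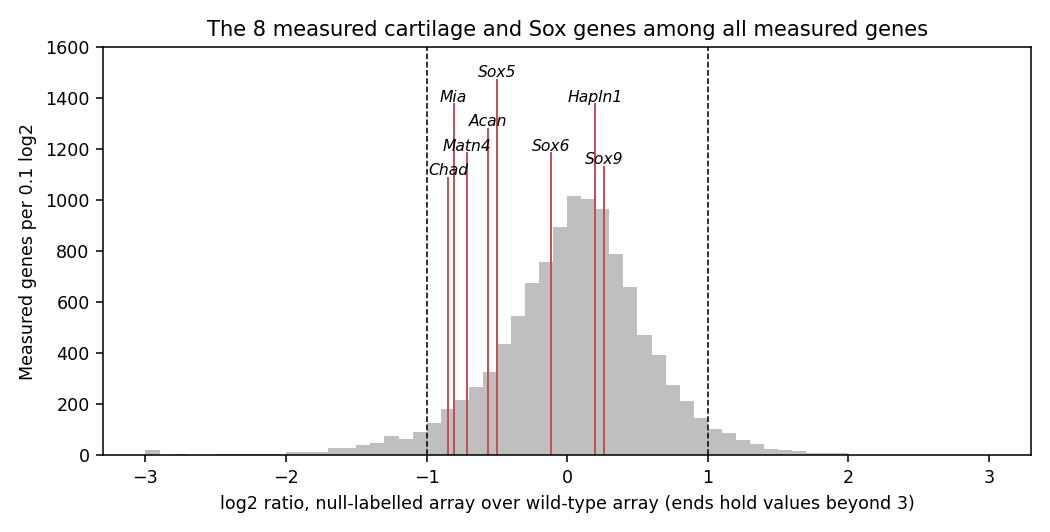
Number of measured genes per 0.1 log2 (vertical axis) by log2 ratio, null-labelled over wild-type array (horizontal axis), for 11238 genes, with lines for the 8 measured genes of the set and dashed lines at 2-fold. Chad, Mia, Matn4, Acan and Sox5 lie on the lower shoulder of the distribution, and Sox6, Hapln1 and Sox9 within its centre.

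The median log2 ratio was -0.53 over the 8 measured genes and -0.36 over all 10, beside 0.07 over all measured genes. As 2 of the 8 passed the filter only on the wild-type array, the first value is a description. Over the 6 genes that passed a filter at the 75th percentile, Sox5 and Mia not among them, the median was -0.34 beside 0.10. That value has the same limit, as Acan, Chad and Sox6 reached the higher level (1479) through the wild-type array alone. The summed signal of the 8 genes was 13163 on the null-labelled array and 16728 in wild type. Of this, Matn4 alone gave 3305 on the null-labelled array and 5413 in wild type.

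Markers of chondrocytes were present on both arrays and did not share a direction. Of 11 such genes outside the set, 6 were measured, with a median log2 ratio of -0.41, 4 below 0 and 2 above. Their summed signal was 24148 on the null-labelled array and 24704 in wild type, of which Col11a1, a fibril collagen, gave 14437 on the null-labelled array and 12607 in wild type. Without it the other 5 summed to 9711 on the null-labelled array and 12098 in wild type. Col2a1, the main cartilage collagen and a direct target of Sox9, gave 2367 on the null-labelled array and 1486 in wild type (0.67). Col11a2, which forms heterotypic fibrils with it, was 2.59-fold lower (626 on the null-labelled array, 1619 in wild type) and reached the measured level through the wild-type array alone. Epyc, a small proteoglycan of growth cartilage, had -0.50 and Col9a3 -0.41. The difference between the log2 ratios of Acan and Col2a1 was -1.23. It rests on 1 measured probe set each, that of Col2a1 with the _a_at suffix, and no error can be put on it. Col9a2, Cnmd, Matn3, Snorc and Ucma were not measured. With these counted as well, 8 of the 11 markers were below 0 and 3 above (median -0.40). Of 14389 genes with an array above the floor 44.5% were below 0.

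Genes that make the sugar chains of aggrecan had a median log2 ratio of 0.29, beside 0.07 over all measured genes. Of 13 measured genes 9 were above 0 and 4 below, where 43.7% of all measured genes were below 0. None was past 2-fold in either direction. Papss2, which supplies activated sulfate and is needed for cartilage growth, had 0.73, and Ugdh, which makes the glucuronate precursor, 0.53. Chpf, a chondroitin polymerising factor, had -0.81 and B3gat3, which completes the linker to the core protein, -0.89. The latter reached the measured level through the wild-type array alone (494 on the null-labelled array, 919 in wild type). Acan itself was at -0.56. Proteases that cut aggrecan, with an inhibitor, were split, with 3 of 6 measured genes below 0 (all measured genes 43.7%). Adamts4 had -0.64 (other probe set -0.36), Adamts5 0.60 (others 0.24), Timp3 0.49 (others 0.00) and Adamts15 0.26.

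Regulators of the growth plate had a median of 0.14, or -0.02 with arrays scaled on the median ratio of reference genes. By their brightest probe sets none of the 9 measured genes was past 2-fold, but Shox2 (0.14) had another probe set at -1.63. Zbtb20 had 0.85, Trps1 0.81 and Bmpr1b 0.73, while the other probe sets of the first and second of these gave medians of 0.06 and 0.11. The Ihh and Gdf5 genes, signals of the growth plate and of joints, were not measured. Hypertrophic cartilage genes had a median of -0.21, but 0.11 with arrays scaled on the median signal of reference genes (all genes 0.40). Their defining collagen, Col10a1, was under the floor on both arrays (32.8 on the null-labelled array, 16.1 in wild type), whereas the measured ones, Mmp13 (-0.37), Alpl (-0.29), Panx3 (-0.12, other probe set -1.34) and Ibsp (0.06), are also made by bone cells.

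**Figure D4:**
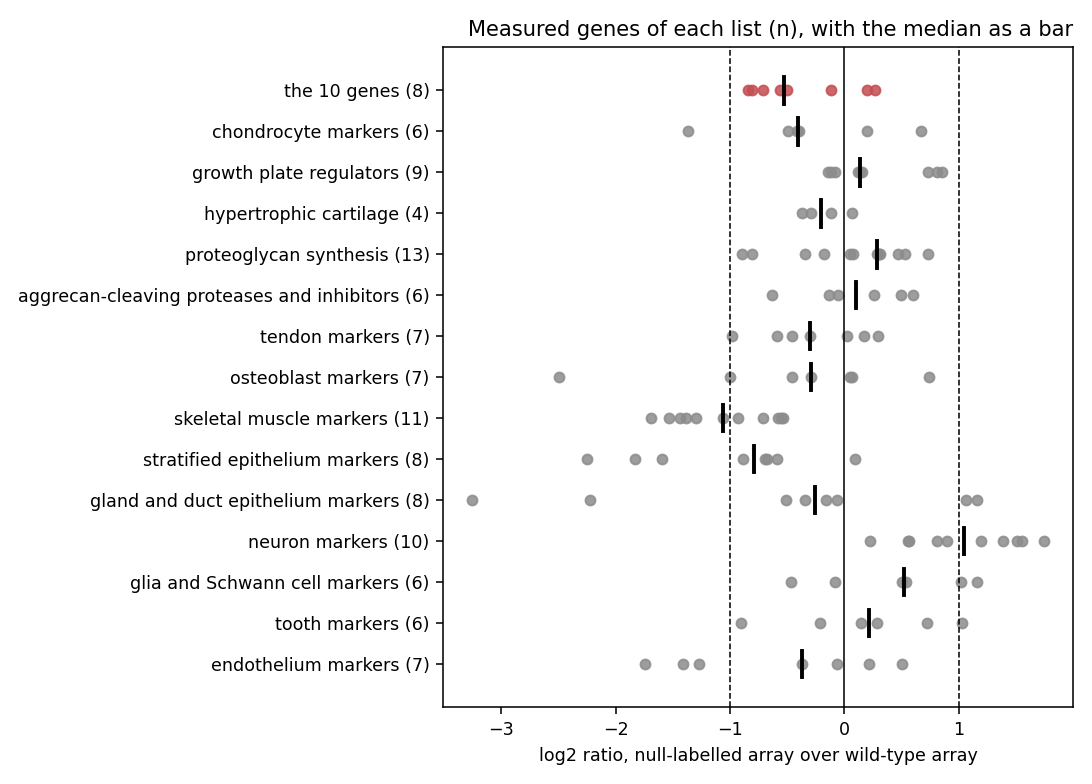
Log2 ratio (null-labelled over wild-type array) of every measured gene in the set of 10 genes and in 14 marker and pathway lists, 1 point per gene, with the list median as a bar, the number of measured genes in brackets and dashed lines at 2-fold. The 8 measured genes of the set (top row) span -0.85 to 0.27, while muscle and stratified epithelium genes lie mostly to the left and neuron genes all to the right.

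Medians of muscle, stratified epithelium and neuron markers lay further from 0 than that of the 8 measured genes of the set (-0.53). Of all measured genes 43.7% were below 0, which is the share to set beside the counts here. All 11 measured skeletal muscle markers were below 0, with a median of -1.07. Their summed signals were 106044 on the null-labelled array and 196714 in wild type. Of these markers 1 was measured through the wild-type array alone. With the unmeasured marker counted as well, 11 of 12 were below 0 and 1 above. In stratified epithelium 7 of 8 were below 0 (median -0.79), with sums of 61368 on the null-labelled array and 109701 in wild type. All 10 neuron markers were above 0 (median 1.05), with sums of 126392 on the null-labelled array and 57815 in wild type. Glia and Schwann cell markers, a list that holds Sox10, had a median of 0.52 with 4 of 6 above 0 (sums of 46353 on the null-labelled array and 31919 in wild type). Tendon markers, of interest because Comp is also made in tendon, had a median of -0.30 with 4 of 7 below 0 (sums of 30206 on the null-labelled array and 33041 in wild type). Osteoblast markers had a median of -0.29, also with 4 of 7 below 0 (sums of 173690 on the null-labelled array and 159918 in wild type). With scaling on the median signal of reference genes, which moved the median of all genes to 0.40, the tendon and osteoblast medians were 0.01 and 0.02. The part of these tissues in the ratios of the 10 genes was not tested.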

How the data were processed

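Per the labels' protocols, biotinylated cRNA from 6 µg total RNA per sample was hybridised to Affymetrix arrays. The deposited intensity values are linear signals, 1 per probe set. The submitters' processing notes name MAS5 as the authors' tool, without a version. Both arrays had a 2% trimmed mean of 1500.01. Detection calls were not used, and no genome build is named.

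Of 45101 probe sets, 64 controls were left out, 932 had several genes and 9160 none listed. Arrays were scaled to a common median over the probe sets in the upper 50% on both (factors 1.03 for the null-labelled array, 0.974 for wild type). The floor was the 40th percentile and the measured level the 60th. A gene was represented by its brightest probe set by mean log2 signal. No test between genotypes was possible with 1 array each, and the number of arrays limits the precision. The 10 genes and the lists were chosen with earlier results of these data known. Genes named from the Sox, matrix and cartilage lists were up to 4 measured ones with the largest absolute ratio and any past 2-fold. Myf5 and Myod1 were named as targeted genes. Eif2s3y, Xist, Col11a1 and Shox2, and genes named as not measured or under the floor, were chosen after their values were seen. None was picked from the lists of other tissues or of reference genes, though some there passed 2-fold. Lower by 2-fold or more were 6 of 11 muscle, 3 of 8 stratified epithelium and 2 of 7 osteoblast markers (all genes 4.22%). So were 3 of 7 endothelium and 2 of 8 gland and duct epithelium markers. Higher by as much were 5 of 10 neuron, 2 of 6 glia and Schwann cell and 1 of 6 tooth markers (all genes 3.51%). So were 2 of 8 gland and duct epithelium markers. The muscle, stratified epithelium, osteoblast and endothelium lists had none higher, and the neuron, glia and tooth lists none lower. Measured through the wild-type array alone were 3 endothelium, 2 gland and duct, 1 muscle and 1 osteoblast marker. The null-labelled array alone brought in 1 endothelium and 1 gland and duct marker. Of the named lists, those of gland and duct epithelium, tooth and endothelium had medians of -0.25, 0.21 and -0.37. The steps were tested on simulated data. Python 3.11.15, numpy 2.4.6, pandas 2.3.3 and matplotlib 3.10.9 were used.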

Additional observations from a re-analysis of the deposited data

How the results depend on the processing

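The count of genes at least 2-fold lower or higher was 0 under all 12 alternatives of scaling, floor, probe set choice and filter. A 3-fold rule could then give only 0, and a 1.5-fold rule gave 3 lower. Sox5 and Mia were measured through the wild-type array alone, where they were brighter, so sign counts over measured genes are descriptions. Over all 10 genes 7 were below 0, against 44.5% of genes with an array above the floor. Of the measured genes of the set, 6 of 8 were below 0 in the values reported, where 43.7% of all measured genes were. With scaling on the median signal of reference genes it was 4 of 7, where 20.9% of all were. With scaling on the median ratio of reference genes it was 6 of 8, where 57.3% were. Over all alternatives the count ranged from 4 to 7, of 6 to 10 measured genes. The median log2 ratio ranged from -0.68 to -0.25. Scaling on the median signal of reference genes shifted the median of all genes by 0.33 and scaling on their median ratio by -0.15; relative to the median of all genes, the median of the set was -0.60 in the values reported, -0.65 and -0.59. It was -0.40 with the floor at the 60th percentile, -0.44 with the filter at the 75th percentile (4 of 6 genes below 0, Sox5 and Mia not among them) and -0.36 with no filter. Acan, Chad and Sox6 passed the filter at the 75th percentile through the wild-type array alone. Ratios of Chad, Mia, Matn4, Acan and Sox5 stayed below 0 and those of Sox9, Hapln1 and Comp above 0 wherever a ratio could be computed, whereas Sox6 and Matn1 each changed sign in 1 alternative. Filters and the choice of probe set cannot move the ratio of a gene with 1 probe set. They therefore do not bear on the signs of Chad, Mia, Matn4, Acan and Comp. Sox5 came to 0.00 with the floor at the 60th percentile. With control probe sets kept in the percentiles, an alternative chosen after seeing the data, Sox5 was not measured and the median over 7 genes was -0.56. No paired analysis was possible because each genotype had 1 array, and for the same reason no array could be left out.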
